A study of Mus musculus with 14 samples.

Results

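Interferon-stimulated genes are the genes whose transcription rises when a cell senses interferon, and 41 mouse genes of this kind were followed here by name in sorted bone marrow cells of young and old mice with and without a tumor. The members were taken as a list of gene symbols, drawn up with earlier results of these data known. A probe that the array annotation assigns to that gene alone was found for 36 of the 41, of 22180 genes named in the same way on the array. No interferon-stimulated gene was called higher or lower with tumor or with age, where called means an adjusted p under 0.05, and the tumor and age differences with the smallest p all pointed downward. They were lower values of Bst2, Trim25 and Xaf1 in old mice, and of Gbp7 and Igtp in old mice among those with a tumor. With a tumor they were lower values of Xaf1 and Eif2ak2, of Parp9 in young mice, and of Ifi35 and Samd9l in old mice. None of them passed the test. Over all tested genes, too, more were lower than higher at an unadjusted p under 0.05. These shares were 8.97% against 4.44% for age and 6.01% against 4.23% for tumor, each averaged over the other factor.

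Each of the 14 arrays held RNA from a female mouse of the strain NCR-NU, a nude strain, so that the cancer-free controls shared the nude background with the tumor-bearing mice. The groups were 3 young cancer-free, 3 young tumor-bearing, 5 old cancer-free and 3 old tumor-bearing mice, each described as a biological replicate. Bone marrow cells that carry Sca1 but not cKit on their surface had been collected by flow cytometry. The ages in weeks, the kind of tumor and the number of cells sorted were not given in the sources used here.

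Interferons of type I and type III signal through JAK kinases to ISGF3, a complex with STAT2 and IRF9 that binds the interferon-stimulated response element (ISRE) in promoters. Type II interferon acts through the gamma-activated site (GAS). Many blood cells keep a low tonic level of these genes without infection, and blood-forming stem and progenitor cells are known to respond to interferon. Sca1 itself, the surface protein used for the sort, is encoded by Ly6a, an interferon-induced gene, so the cells were gated on a protein of the same response. Ly6a was not analysed here.

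The promoter stretches that carry these elements are shown for Isg15 and Ifit1, which are classical targets, and for Bst2, Gbp7, Igtp and Irgm2, whose levels are described further on. The search looked on both strands for the letters GAAANNGAAA (ISRE) and TTCNNNGAA (GAS) in RefSeq windows of 300 bases, from 250 before to 50 after the annotated start, on the build GRCm38.p6. Capitals mark the matched letters of either element, and each stretch is written 5′ to 3′ on the strand of its gene.
Isg15, chr4:156200865-156200906, minus strand: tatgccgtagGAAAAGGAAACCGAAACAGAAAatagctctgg
Ifit1, chr19:34640775-34640823, plus strand: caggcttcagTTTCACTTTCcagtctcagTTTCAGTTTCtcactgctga
Bst2, chr8:71537577-71537618, minus strand: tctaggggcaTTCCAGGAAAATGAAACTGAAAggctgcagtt
Gbp7, chr3:142530220-142530302, plus strand: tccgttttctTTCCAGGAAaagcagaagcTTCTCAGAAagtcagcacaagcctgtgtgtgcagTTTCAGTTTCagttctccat
Igtp, chr11:58199501-58199541, plus strand: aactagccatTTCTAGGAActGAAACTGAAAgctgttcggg
Irgm2, chr11:58214892-58214932, plus strand: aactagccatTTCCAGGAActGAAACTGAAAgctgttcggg

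A window was given for 31 of the 41 members. The ISRE letters were present in 19 of these 31 windows (61.3%), against 1079 of 27025 genes with a window (3.99%). The GAS letters were present in 11 of 31 (35.5%), against 2582 of 27025 genes (9.55%). Both were present in 8 members and neither in 9. In Isg15 a run of ISRE matches overlaps, while in Bst2 a GAS match overlaps an ISRE match, the 1 member window with such an overlap. Igtp and Irgm2, neighbours on chromosome 11, carry nearly the same stretch, with a GAS match followed by an ISRE match. Xaf1, Trim25 and Samd9l had no ISRE letters in their windows. A match is a run of letters and was not measured as a bound site in these cells.

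All values are log2 signals as deposited after normalization across arrays, so a difference of 1 is a doubling, and differences are given with their standard error from a limma fit over all 14 arrays. A gene was tested when its signal lay above 3.88, the median of the whole table, on at least 3 arrays, which left 13805 genes. Ptprc, the pan-leukocyte surface protein CD45, was bright on every array (10.53 to 11.36), while Kit, whose protein the sort selected against, read 5.25 to 7.03. The correlation of each array with the other 13, averaged over all named genes, was lowest for young tumor-bearing replicate 1 (0.9463) and old tumor-bearing replicate 3 (0.9498). Precision was limited by the number of arrays, and in such bulk RNA fewer cells of a type and less RNA per cell cannot be told apart.

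Of the 36 measured members, 33 were tested. Mx1 and Rsad2, encoding an antiviral GTPase and viperin, lay below 3.88 on every array, at 2.27 to 3.21 and 2.25 to 3.17, and Oasl1 was above it on 2 arrays. At the other end, 25 members were above this level on all 14 arrays. Among the tested members 6 had at least 1 group mean under it, namely Eif2ak2, Ifit2, Iigp1, Mx2, Oas2 and Oasl2, and their differences are not exact sizes. The 5 members without a probe of their own were Oas1a, Dtx3l, Gbp2 and Tgtp1, whose probes the annotation also assigns to Oas1g, Parp9, Gbp2b and Tgtp2, and Ifi44, for which no probe was listed.

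**Figure D1:**
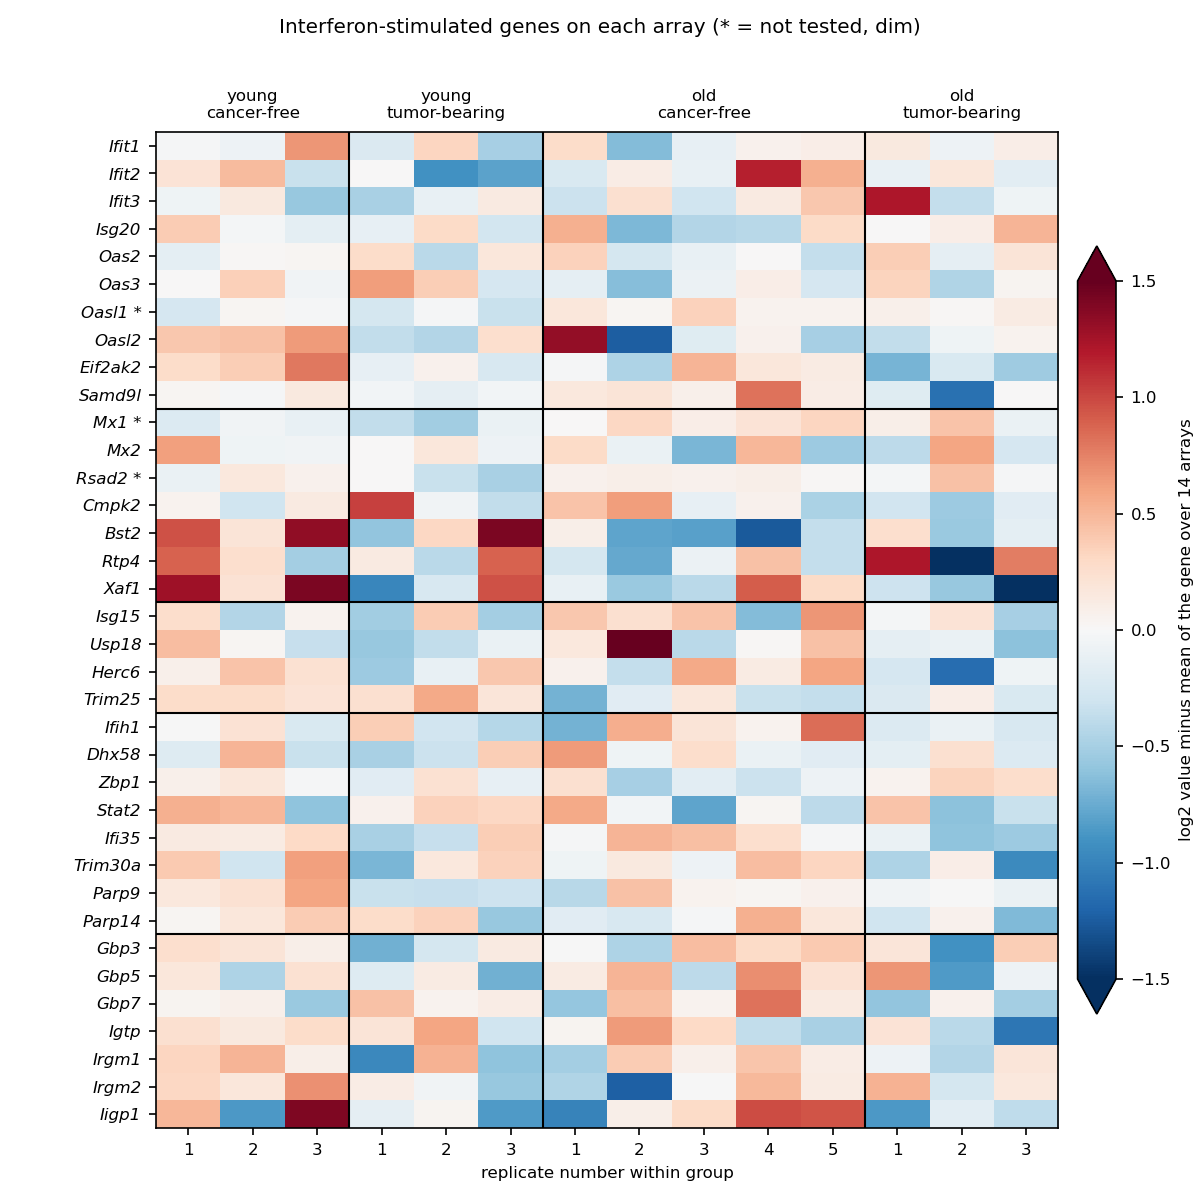
Deviation of each measured interferon-stimulated gene (rows, grouped by role) from its own mean over 14 arrays, in log2 units, with arrays in columns by group and an asterisk at the 3 genes that were too dim to test. On the 3 young cancer-free arrays 28, 24 and 21 of 33 tested members lay above their means. It was 13, 10 and 11 on the 3 old tumor-bearing arrays and 26 on old cancer-free replicate 4. The same count over all tested genes was not made.

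The first question was whether a tumor in the host goes with other levels of the response genes. In young mice 26 of 33 tested members had lower means with a tumor and 7 higher means, with a median difference of -0.18, beside -0.02 over all tested genes, of which 52.8% were lower. A stricter filter, signal above 5.48 on at least 3 arrays, left 7395 genes, and the median over all of these was -0.12. No member was called (smallest adjusted p 0.886, limma with Benjamini-Hochberg adjustment), and none of the 13805 genes was either (0%). At an unadjusted p under 0.05, Parp9 and Eif2ak2 were lower and no member higher, where the same rule took 3.3% of all genes as lower and 2.1% as higher. Counted in either direction, the 2 became 4 without young cancer-free replicate 2 and 4 without young tumor-bearing replicate 3. With arrays left out, the share of all genes at that level was not counted, here and below. For 31 of 33 members the 95% interval stayed under a doubling with tumor, and for 18 of 33 it stayed above a halving. Intervals here and below are not adjusted for the number of genes.

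Parp9, a macrodomain protein that works with the ubiquitin ligase Dtx3l in interferon signalling, had the smallest p of this comparison. Its values were 5.86, 5.93 and 6.30 in young cancer-free mice, 5.36, 5.35 and 5.39 in young tumor-bearing mice, 5.29, 6.13, 5.75, 5.73 and 5.76 in old cancer-free mice and 5.64, 5.69 and 5.60 in old tumor-bearing mice. In young mice all arrays with a tumor lay below all arrays without, a difference of -0.66 ± 0.20 (SE, adjusted p 0.886, limma). In old mice the arrays overlapped (-0.09 ± 0.18). How many of all tested genes separate by array in a comparison was not counted, here and below. Most genes described in this way were picked for a small p.

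Eif2ak2 encodes PKR, the kinase that stops translation on double-stranded RNA. It read 4.08, 4.17 and 4.60 in young cancer-free mice and 3.67, 3.87 and 3.56 in young tumor-bearing mice, then 3.78, 3.34, 4.31, 3.98 and 3.93 in old cancer-free mice and 3.11, 3.57 and 3.27 in old tumor-bearing mice. The young groups did not overlap and the old groups did. The tumor difference was -0.58 ± 0.24 in young and -0.55 ± 0.21 in old mice, both uncalled (adjusted p 0.886 and 0.461, limma). Of these 14 values 8 lie below 3.88, so neither difference is an exact size.

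Xaf1 encodes an interferon-induced partner of the apoptosis inhibitor XIAP. Its values were 7.98, 6.92 and 8.13 in young cancer-free mice, 5.74, 6.47 and 7.67 in young tumor-bearing mice, 6.60, 6.16, 6.31, 7.62 and 6.99 in old cancer-free mice and 6.40, 6.14 and 4.82 in old tumor-bearing mice. The groups overlapped in each pair, with 1 young tumor-bearing array inside the cancer-free range. The difference with tumor was -1.05 ± 0.54 in young mice (adjusted p 0.887, limma) and -0.95 ± 0.48 in old mice (adjusted p 0.545). Without young tumor-bearing replicate 1 the first of these was -0.61.

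In old mice 22 of 33 members had lower means with a tumor, with a median of -0.25 beside 0.01 over all genes, of which 48.7% were lower. Over the genes left by the stricter filter the median was -0.07. No member was called (smallest adjusted p 0.403, limma) and no gene on the array was (0%). At an unadjusted p under 0.05, 4 members were lower, Ifi35, Samd9l, Eif2ak2 and Herc6, and none was higher, where the rule took 5.56% of all genes as lower and 4.2% as higher. Counted in either direction, the 4 became 8 without old cancer-free replicate 1, with the share of all genes in that fit not counted. The 95% interval stayed under a doubling for 30 members and above a halving for 19.

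Ifi35, a leucine-zipper protein that pairs with Nmi, read 6.68, 6.67 and 6.85 in young cancer-free mice, 6.06, 6.21 and 6.92 in young tumor-bearing mice, 6.53, 7.07, 6.998, 6.80 and 6.54 in old cancer-free mice and 6.45, 5.95 and 6.003 in old tumor-bearing mice. All old tumor-bearing arrays were below all old cancer-free arrays, a difference of -0.65 ± 0.22 (adjusted p 0.403, limma). A second Ifi35 probe gave group means of 6.18 ± 0.49 (SD, n = 5) and 5.47 ± 0.29 (SD, n = 3) in old cancer-free and old tumor-bearing mice, lower with a tumor like the first. In young mice the probes disagreed: the second read 5.85 ± 0.04 without and 6.71 ± 1.06 with a tumor (SD, n = 3 each), the first 6.74 ± 0.10 and 6.40 ± 0.46.

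Samd9l, an antiviral restriction factor that also limits the growth of blood-forming cells, gave 5.62, 5.58 and 5.74 in young cancer-free mice, 5.56, 5.46 and 5.55 in young tumor-bearing mice, 5.75, 5.79, 5.68, 6.41 and 5.71 in old cancer-free mice and 5.41, 4.48 and 5.60 in old tumor-bearing mice. At both ages the tumor-bearing arrays were all below the cancer-free arrays, in young mice by a narrow margin (5.558 against 5.581). In old mice the difference was -0.70 ± 0.24 (adjusted p 0.416, limma) and moved to -0.36 without old tumor-bearing replicate 2. In young mice it was -0.12 ± 0.27.

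Averaged over both ages, 24 of 33 members had a negative tumor difference, with a median of -0.25 beside -0.01 over all genes, of which 51.1% were negative. The median was -0.15 without old tumor-bearing replicate 3. Over all genes left by the stricter filter it was -0.10. Single members ran from -1.001 for Xaf1 to 0.16 for Oas3, with no call (smallest adjusted p 0.337, limma), as for all genes (0%). At an unadjusted p under 0.05, 6 members were lower, Eif2ak2, Ifi35, Xaf1, Parp9, Herc6 and Samd9l, and none was higher. With the mean of its probes in place of the brighter one, Ifi35 gave -0.21 instead of -0.50. The rule took 6.01% of all genes as lower and 4.23% as higher. For 32 members the interval lay under a doubling and for 28 above a halving, so that a rise of 2-fold or more with tumor was outside the interval of all but 1 tested member, Rtp4 (0.06 ± 0.46).

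**Figure D2:**
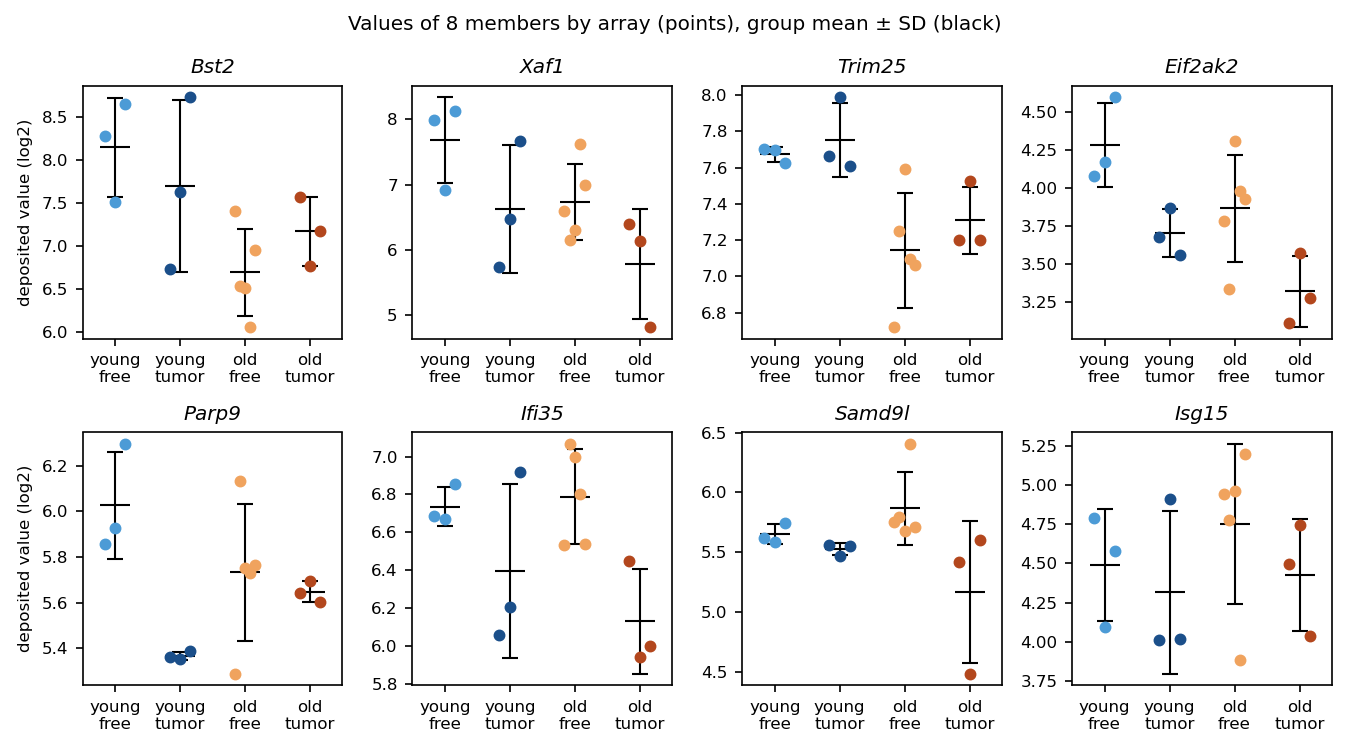
Log2 signal of 8 interferon-stimulated genes on each of 14 arrays (points) by group, with the group mean and SD in black. Trim25 lies lower on all 8 old than on all 6 young arrays, Parp9 is lower on the 3 young tumor-bearing than on the 3 young cancer-free arrays, and the groups of Isg15 overlap.

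By role, 7 guanylate-binding and immunity-related GTPases were tested, which attack the vacuoles of intracellular microbes and are strongly induced by type II interferon. All had negative tumor differences on average over ages, beside 51.1% of all genes. Their median was -0.28, and they ran from -0.69 (Iigp1, with 2 group means under 3.88) to -0.09 (Gbp7). At each age 6 of the 7 were lower, all but Gbp7 in young mice and all but Irgm2 in old mice. None reached an unadjusted p under 0.05. The immunity-related GTPases Irgm1, Igtp and Irgm2 gave -0.43 ± 0.23, -0.26 ± 0.23 and -0.10 ± 0.25, and the guanylate-binding proteins Gbp3 and Gbp5 gave -0.36 ± 0.22 and -0.28 ± 0.25 (SE, limma).

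Of the 4 tested genes around the ubiquitin-like modifier ISG15, 3 were lower with a tumor, with a median of -0.38. Isg15 itself read 4.79, 4.09 and 4.58 in young cancer-free, 4.01, 4.91 and 4.02 in young tumor-bearing, 4.94, 4.77, 4.96, 3.88 and 5.20 in old cancer-free and 4.50, 4.74 and 4.04 in old tumor-bearing mice. Its groups overlapped throughout, and its average tumor difference was -0.25 ± 0.23. Usp18, the protease that removes ISG15 and restrains the type I receptor, gave -0.51 ± 0.26, and Herc6, the main mouse ligase for ISG15, gave -0.51 ± 0.22 (adjusted p 0.517 and 0.467, limma).

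The 8 tested sensors and signalling proteins had a median tumor difference of -0.25, with 6 lower. The RNA helicases Ifih1 (MDA5) and Dhx58 (LGP2) gave -0.24 ± 0.22 and -0.15 ± 0.20, the signal transducer Stat2 gave 0.02 ± 0.25, and Trim30a and Parp14 gave -0.45 ± 0.22 and -0.27 ± 0.19. Zbp1, a sensor of nucleic acids in the Z form, was the member with the largest positive tumor difference in old mice relative to its error, 0.38 ± 0.18 (adjusted p 0.524, limma).

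The 9 tested effectors that act on RNA were close to balanced, 5 lower, with a median of -0.10. Among the IFIT proteins, which bind foreign RNA ends, Ifit1 gave -0.10 ± 0.19, Ifit2 -0.51 ± 0.24 and Ifit3 0.12 ± 0.24. The oligoadenylate synthetases Oas2 and Oas3, which switch on RNase L, gave 0.13 ± 0.15 and 0.16 ± 0.18, the related Oasl2 gave -0.35 ± 0.30, and the exonuclease Isg20 gave 0.12 ± 0.21. Among the 5 other antiviral effectors the median was -0.02: Cmpk2 gave -0.10 ± 0.23, Mx2 -0.02 ± 0.22 and Bst2 0.01 ± 0.31, and Xaf1 stood apart.

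**Figure D3:**
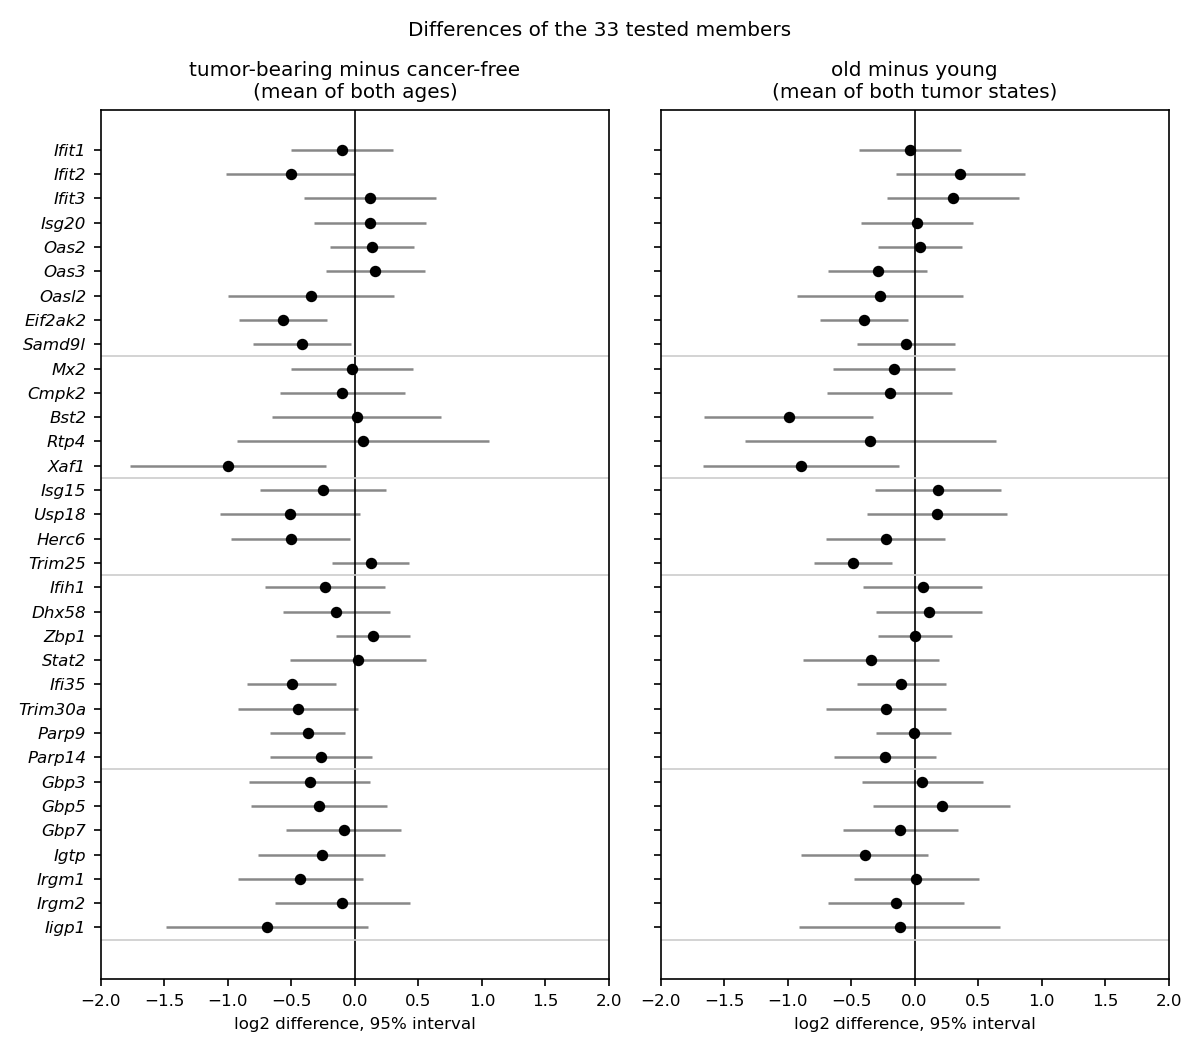
Log2 difference with its unadjusted 95% interval for each of the 33 tested interferon-stimulated genes, tumor-bearing minus cancer-free in the left panel and old minus young in the right, each averaged over the other factor. In the left panel 24 genes lie below 0 and 6 have intervals wholly below it, in the right 21 and 4, and in neither panel does an interval lie wholly above 0.

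The second question was age. In cancer-free mice 22 of 33 members had lower means in old than in young mice, with a median of -0.14 beside -0.04 over all genes, of which 55.5% were lower. The median was -0.06 without young cancer-free replicate 3. Over all genes left by the stricter filter it was -0.15, while the members' -0.14 was taken over all 33 under the first filter. No member was called (smallest adjusted p 0.522, limma) and no gene was (0%). Bst2 and Trim25 were lower at an unadjusted p under 0.05 and no member was higher, where the rule took 5.17% of all genes as lower and 2.48% as higher. Counted in either direction, the 2 became 4 without old cancer-free replicate 4.

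Bst2 encodes tetherin, which holds budding viruses at the cell surface and is also a surface marker of mouse plasmacytoid dendritic cells. It read 8.28, 7.51 and 8.65 in young cancer-free mice, 6.72, 7.63 and 8.73 in young tumor-bearing mice, 7.40, 6.53, 6.50, 6.05 and 6.96 in old cancer-free mice and 7.57, 6.76 and 7.17 in old tumor-bearing mice. All 5 old cancer-free arrays were below all 3 young ones, while the tumor-bearing groups overlapped. The age difference in cancer-free mice was -1.46 ± 0.41, a level of 0.365 times the young one with a 95% interval of the log2 difference from -2.34 to -0.57 (adjusted p 0.522, limma). In tumor-bearing mice it was -0.52 ± 0.46.

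Markers of plasmacytoid dendritic cells had lower values in old mice as well. Over the 14 tested of 15 listed, all 14 were lower on average over tumor states, with a median of -0.93, 11 of them at an unadjusted p under 0.05, beside 8.97% of all genes lower at that level, and none called. Their mean level per array was 6.87 to 7.83 in young cancer-free, 7.22 to 7.99 in young tumor-bearing, 5.86 to 7.29 in old cancer-free and 5.99 to 6.48 in old tumor-bearing mice. Their part in the values of Bst2 was not tested.

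Trim25, the ligase that ubiquitinates the RNA sensor RIG-I and also attaches ISG15 to its targets, read 7.70, 7.70 and 7.62 in young cancer-free mice, 7.66, 7.99 and 7.61 in young tumor-bearing mice, 6.72, 7.25, 7.59, 7.09 and 7.06 in old cancer-free mice and 7.20, 7.52 and 7.20 in old tumor-bearing mice. All 8 old arrays were below all 6 young arrays, by a narrow margin. The age difference was -0.53 ± 0.19 in cancer-free and -0.45 ± 0.21 in tumor-bearing mice (adjusted p 0.581 and 0.504, limma).

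In tumor-bearing mice 18 of 33 members were lower in old mice, with a median of -0.07 beside 0.004 over all genes, of which 49.5% were lower. Over the genes left by the stricter filter the median was -0.08, and over the members left by it -0.30. No member was called (smallest adjusted p 0.504, limma), no gene was (0%), and no member passed an unadjusted p of 0.05 in either direction, where the rule took 6.35% of genes as lower and 3.75% as higher. Without young tumor-bearing replicate 1, and also without replicate 3 of that group, 3 members passed it. The next members after Trim25 were Gbp7 (-0.55 ± 0.31, adjusted p 0.583) and Igtp (-0.59 ± 0.35, adjusted p 0.597). Igtp, a regulatory GTPase of the IRGM class, read 8.73, 8.64 and 8.77 in young cancer-free, 8.68, 9.08 and 8.19 in young tumor-bearing, 8.53, 9.13, 8.79, 8.12 and 8.003 in old cancer-free and 8.70, 8.09 and 7.40 in old tumor-bearing mice. Its groups overlapped, and the difference ranged from -0.91 to -0.26 as single arrays were left out, with old tumor-bearing replicate 1 and replicate 3 at these ends.

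Averaged over tumor states, 21 of 33 members had a negative age difference, with a median of -0.11 beside -0.01 over all genes, of which 52.0% were negative. The median was -0.04 without old tumor-bearing replicate 2. Over all genes left by the stricter filter it was -0.11, while the members' -0.11 was taken over all 33 under the first filter. This comparison was the one in which the array held any calls, 12 of 13805 genes (0.0869%), and no member was among them (smallest adjusted p 0.182, limma, for Trim25). At an unadjusted p under 0.05, 4 members were lower and none higher, where the rule took 8.97% of genes as lower and 4.44% as higher. They were Trim25 (-0.49 ± 0.14), Bst2 (-0.99 ± 0.31), Xaf1 (-0.89 ± 0.36) and Eif2ak2 (-0.40 ± 0.16), with adjusted p 0.182, 0.203, 0.310 and 0.310. A rise of 2-fold or more with age lay outside the interval of all 33 tested members, and a fall of 2-fold or more outside that of 30.

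By role, the 5 other antiviral effectors were all lower in old mice, with a median of -0.35, and besides Bst2 and Xaf1 they were Rtp4 (-0.35 ± 0.46), Cmpk2 (-0.20 ± 0.23) and Mx2 (-0.16 ± 0.22). Effectors acting on RNA had a median age difference of -0.04, with 5 of 9 lower and Ifit2 and Ifit3 higher at 0.36 ± 0.24 and 0.30 ± 0.24. Sensors and signalling proteins had a median of -0.06 (5 of 8 lower), the ISG15 genes -0.03 (2 of 4) and the GTPases -0.11 (4 of 7). Isg15 and Usp18 gave 0.19 ± 0.23 and 0.18 ± 0.26, opposite in sign to Trim25.

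Whether the tumor difference depended on age was tested as old minus young. Of the 33 members 15 were negative and 18 positive, with a median of 0.03 beside 0.02 over all genes, of which 47.6% were negative. The sign of this median turned without old tumor-bearing replicate 1 (-0.15). No member was called (smallest adjusted p 0.976, limma), no gene was (0%), and none passed an unadjusted p of 0.05, where the rule took 1.85% of genes as lower and 2.57% as higher. Without old cancer-free replicate 1, 3 members passed it. The intervals were wide, inside a doubling for 18 members and inside a halving for 18.

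The 3 members with the smallest p were Parp9 (0.57 ± 0.27), Gbp7 (-0.86 ± 0.42) and Irgm2 (0.92 ± 0.50), all at an adjusted p of 0.976 by limma. Gbp7, a guanylate-binding protein with a pair of GAS matches in its promoter stretch above, read 7.20, 7.24 and 6.60 in young cancer-free, 7.60, 7.20 and 7.26 in young tumor-bearing, 6.57, 7.61, 7.21, 7.97 and 7.29 in old cancer-free and 6.57, 7.22 and 6.64 in old tumor-bearing mice. Its tumor difference was 0.34 ± 0.31 in young and -0.52 ± 0.28 in old mice, with overlapping arrays at both ages. Irgm2, a GTPase that sits on Golgi and lysosome membranes, read 7.55, 7.41 and 7.92 in young cancer-free, 7.35, 7.19 and 6.66 in young tumor-bearing, 6.78, 6.01, 7.23, 7.73 and 7.36 in old cancer-free and 7.76, 6.98 and 7.40 in old tumor-bearing mice. All young tumor-bearing arrays of Irgm2 were below the young cancer-free ones (-0.56 ± 0.37), and the old groups overlapped (0.36 ± 0.33).

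The genes that make, sense and relay interferon were looked at beside the members. Of 110 listed pathway genes outside the 41 members, 82 were tested and none was called in any comparison. With tumor, averaged over ages, 60 of 82 were lower (beside 51.1% of all genes), with a median of -0.19. At an unadjusted p under 0.05, 13 were lower and 4 higher, beside 6.01% and 4.23% of all genes. With age 44 of 82 were lower (beside 52.0% of all genes), with a median of -0.01, and 12 were lower and 4 higher at that level, beside 8.97% and 4.44% of all genes.

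At the top of the pathway, 7 of 20 listed interferon genes were bright enough to test, with median differences of 0.15 with tumor and 0.17 with age. With tumor 4 of them were higher and 3 lower on average over ages. At an unadjusted p under 0.05, 2 were higher and 1 lower, beside 4.23% and 6.01% of all genes. The lower gene at that level was Ifng, the type II interferon, named here after its values were seen. It read 5.42 ± 0.51 in young cancer-free and 4.42 ± 0.38 in young tumor-bearing mice (SD, n = 3 each), and 5.65 ± 0.78 (SD, n = 5) and 4.82 ± 0.88 (SD, n = 3) in the old groups. Its averaged tumor difference was -0.91 ± 0.34 (SE, adjusted p 0.406, limma). Ifna14 and Ifnl2 went the other way at both ages. Ifna14 read 4.68 without and 5.34 with a tumor in young mice, and 5.39 and 5.67 in old mice. Ifnl2 read 6.24 and 6.47 in young mice, and 6.55 and 6.81 in old mice. All 6 receptor chains were tested. The type I chains Ifnar1 and Ifnar2 gave -0.21 ± 0.19 and -0.08 ± 0.15 with tumor and -0.19 ± 0.19 and -0.27 ± 0.15 with age. The type II chains Ifngr1 and Ifngr2 gave -0.04 ± 0.22 and 0.10 ± 0.21 with tumor and -0.26 ± 0.22 and -0.38 ± 0.21 with age. The type III chains Ifnlr1, with 1 group mean under 3.88, and Il10rb, shared with the interleukin-10 receptor, gave 0.28 ± 0.17 and -0.43 ± 0.19 with tumor and 0.17 ± 0.17 and 0.23 ± 0.19 with age. Il10rb was the 1 receptor gene at an unadjusted p under 0.05 with tumor (adjusted p 0.477, limma).

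Irf9, the DNA-binding part of ISGF3, read 6.20, 5.83 and 7.22 in young cancer-free, 5.42, 5.72 and 5.58 in young tumor-bearing, 4.61, 5.14, 5.33, 5.21 and 6.37 in old cancer-free and 4.53, 5.27 and 4.55 in old tumor-bearing mice. All young tumor-bearing arrays lay below the young cancer-free arrays, and the old groups overlapped. Its average difference was -0.70 ± 0.27 with tumor and -0.94 ± 0.27 with age (adjusted p 0.419 and 0.180, limma). Irf7, the factor that amplifies type I interferon production, differed by -0.33 ± 0.28 with tumor and 0.32 ± 0.28 with age.

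The pathway genes with the smallest p for tumor were Trim12c (-1.15 ± 0.24), a TRIM5-like gene, Nmi (-0.71 ± 0.18), the partner of Ifi35, and Lgals9 (-0.68 ± 0.20), encoding galectin-9. Their adjusted p by limma was 0.268, 0.317 and 0.364, and 3 group means of Trim12c lay under 3.88. For age they were the endosomal RNA sensor Tlr7 (-1.13 ± 0.26, adjusted p 0.0880), the DNA-sensor family gene Ifi205 (-1.48 ± 0.34, adjusted p 0.0903, with 3 group means under 3.88) and Lgals3bp (-0.52 ± 0.14, adjusted p 0.150). Tlr7 is itself among the 14 plasmacytoid dendritic cell markers counted above beside Bst2.

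**Figure D4:**
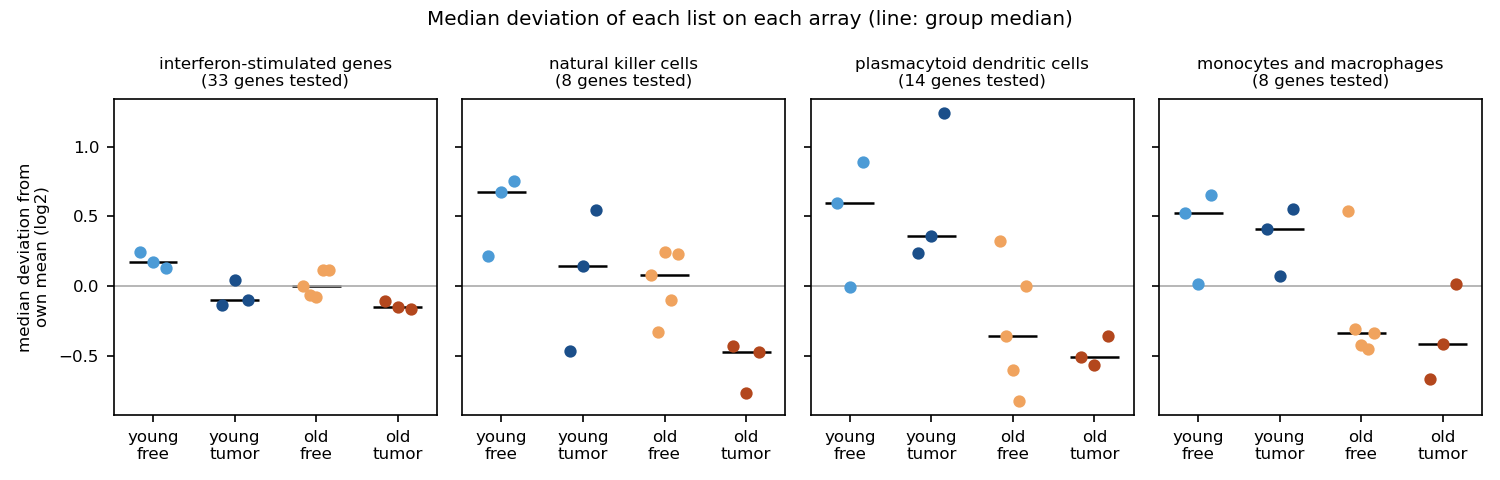
Median deviation of 4 gene lists from each gene's mean over 14 arrays, in log2 units, on every array (points) by group, with a line at the group median. The interferon-stimulated genes span -0.16 to 0.24, with the 3 young cancer-free arrays highest, and no such value was computed over all tested genes. The plasmacytoid dendritic cell markers have lower group medians in the old groups. Old cancer-free replicates 1 (0.32) and 5 (0.004) lie within the range of the young arrays.

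Taken per array, the median deviation of the 33 tested members from their own means was 0.24, 0.17 and 0.13 in young cancer-free, -0.14, 0.04 and -0.10 in young tumor-bearing, -0.001, -0.06, -0.08, 0.12 and 0.12 in old cancer-free and -0.10, -0.15 and -0.16 in old tumor-bearing mice. The 3 young cancer-free arrays were the highest of the 14 and the 3 old tumor-bearing arrays were among the 4 lowest. The same deviation was not computed over all tested genes, so this order cannot be called particular to the members. Over 8 tested of 9 listed natural killer cell markers, all 8 were lower with tumor on average, with a median of -0.40, and 7 of 8 were lower with age, with a median of -0.48. They had mean levels per array of 8.19 to 8.61 in young cancer-free, 7.33 to 8.31 in young tumor-bearing, 7.54 to 8.26 in old cancer-free and 6.87 to 7.41 in old tumor-bearing mice. Over 8 tested of 10 listed monocyte and macrophage markers, all 8 were lower with age, 1 of them called, with a median of -0.72. Mean levels of these were 6.24 to 6.87 in young cancer-free, 6.26 to 6.58 in young tumor-bearing, 5.63 to 6.69 in old cancer-free and 5.59 to 6.06 in old tumor-bearing mice. Over 9 tested of 10 listed T cell markers, 7 were lower with tumor, with a median of -0.30, and 6 were higher with age, with a median of 0.77. Mean levels of these were 7.06 to 7.81 in young cancer-free, 6.37 to 7.35 in young tumor-bearing, 7.08 to 8.20 in old cancer-free and 7.44 to 7.75 in old tumor-bearing mice. Over 7 tested of 8 listed mature B cell markers, 5 were lower with tumor, with a median of -0.42, and 6 were lower with age, with a median of -0.18. Mean levels of these were 7.05 to 7.72 in young cancer-free, 6.71 to 7.15 in young tumor-bearing, 6.80 to 7.50 in old cancer-free and 6.43 to 6.85 in old tumor-bearing mice. Over all tested genes 51.1% were lower with tumor and 52.0% with age, and 0.0869% were called for age. At an unadjusted p under 0.05, 3 natural killer, 3 T cell, 2 mature B cell and 1 monocyte marker were lower with tumor. That rule took 6.01% of all genes as lower. With age 6 monocyte, 2 natural killer and 1 mature B cell marker were lower and 5 T cell markers higher. For age it took 8.97% as lower and 4.44% as higher. The part of these cell types in the levels of the interferon-stimulated genes was not tested.

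Members with and without the ISRE letters were set side by side with no test. The 15 tested members with an ISRE match had a median tumor difference of -0.24 (11 lower) and a median age difference of -0.11 (9 lower), averaged over the other factor. The 9 tested members whose window held none had -0.41 (7 lower) and -0.20 (7 lower). Xaf1, among the largest tumor and age differences, belongs to the second set. Trim25, among the largest for age but at 0.12 with tumor, belongs there too. Bst2, with the overlapping pair of matches printed above, belongs to the first.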

How the data were processed

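RNA of Sca1+ cKit- bone marrow cells from 14 mice was amplified from 500 pg, labelled and hybridised to single-colour arrays, per the labels' protocols. The deposited values are log2 intensities, which the submitters' processing notes credit to RMA (oligo 1.32.0, R 3.2.0) as run by the authors. Of 41345 probes 23521 carried 1 gene symbol, 1814 several and 16010 none, and the brightest probe with 1 symbol stood for each of 22180 genes. Genes above 3.88 on at least 3 arrays were fitted with limma 3.58.1 in R 4.3.3 as 4 group means over all 14 arrays, with Benjamini-Hochberg adjustment within each of 7 comparisons. The fit was tested on simulated data. Members and gene lists were chosen with earlier results of these data known. Values per array are given for the 3 members with the smallest p in each comparison and for Isg15, which was added as a reference after its values were seen. Pathway genes named are the 3 with the smallest p in each averaged comparison, the receptors, Irf7 and Irf9. Ifng, Ifna14 and Ifnl2 were added after their values were seen. Alternatives covered filtering, normalization, probe choice, variance model, replicate block and each array left out. Promoter sequences are from RefSeq (GRCm38.p6).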

Additional observations from a re-analysis of the deposited data

Results flagged for a closer look

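Among the 5 old cancer-free arrays, Samd9l read 6.41 on replicate 4, while the other arrays of the group lay between 5.68 and 5.79. The gap made up 0.845 of the group's range, above the critical value of 0.71, and was the 1 such case among 33 members tested in that group, where chance gives about 1 in 20. The tumor difference of Gbp7 pointed in opposite directions at the 2 ages, 0.34 in young and -0.52 in old mice, a difference of -0.86 between them. Every tumor-bearing array lay on that side of its age group's cancer-free mean. Tested as an interaction by limma it was not called (adjusted p 0.976), and it was the 1 case among 66 pairs of effects compared in which every array of both groups set against a mean lay on opposite sides in this way. Differences of the means alone had opposite signs in other members too, such as Irgm2.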

How the results depend on the processing

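No interferon-stimulated gene and none of the listed pathway genes counted in the 5 comparisons other than the averaged ones was called under any of 24 alternatives, 1 of which, leaving out the 2 least correlated arrays together, was chosen after seeing the data. The lowest adjusted p of a member over the alternatives was 0.0952 (age, averaged). Single genes with the smallest p were followed through the alternatives in 27 comparisons. Among these Tlr7 alone passed the threshold in 1 setting, with those 2 arrays left out (-1.42, adjusted p 0.0455, limma). The other named pathway genes, such as Irf9 and Ifng, were not followed in this way in the averaged comparisons. The members' median moved beyond 0.0794, the SD between replicates, in a few settings. With the replicate block it was -0.12 for tumor in old mice and -0.23 for age in cancer-free mice. With the stricter filter (20 members tested) it was -0.30 for age in tumor-bearing mice, beside -0.08 over all genes so filtered. With cyclic loess it was -0.030 for the averaged age difference. With single arrays left out it ran from -0.32 to -0.14 (tumor, young), -0.35 to -0.18 (tumor, old), -0.17 to -0.058 (age, cancer-free), -0.11 to -0.04 (age, tumor-bearing), -0.15 to 0.12 (old minus young), -0.28 to -0.15 (tumor, averaged) and -0.17 to -0.04 (age, averaged). The cause was not tested. The replicate block called 0 members and gave 3 members at an unadjusted p under 0.05 for the averaged tumor difference, against 6. The share of all genes at that level was not counted under the block. Of 18 same-numbered pairs 0 correlated above 0.1, so the numbers were not read as pairs. The mean of both Ifi35 probes gave -0.21 for the averaged tumor difference, against -0.50. Without the filter the median for age in tumor-bearing mice was 0.01. The fit of only the groups compared gives no averaged difference or interaction. Dim genes limit what the signal can show.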
